A study of Mus musculus with 12 samples.

Results

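The oxygen-sensing genes of the mouse heart were followed after acute myocardial infarction (AMI) in RNA sequencing of whole hearts. The genes were chosen by symbol and are 10 of the 53801 genes in the deposited tables: Hif1a, Epas1, Egln1, Egln3, Vegfa, Adm, Bnip3, Car9, Ankrd37 and Higd1a. Hearts came from C57BL/6N mice, for which the labels give no allele, 4 after a sham operation, 4 on day 1 and 4 on day 7 after the left anterior descending coronary artery was tied off for good, and each heart gave 1 library. The study's methods give the age of the mice in that surgery as 10 to 14 weeks. The labels do not give the day on which sham hearts were taken, and a whole heart holds infarct, border and remote muscle together, so these are not separated. The 10 cardiomyocyte marker genes, such as Myh6 and Tnnt2, had counts in all 12 libraries.

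Cells sense oxygen through the hypoxia-inducible factors (HIFs). Hif1a and Epas1 encode the alpha subunits of these transcription factors, which are made continuously. While oxygen is present, the prolyl hydroxylases encoded by Egln1 and Egln3 mark the alpha subunits for destruction through the VHL ubiquitin ligase. When oxygen falls, the alpha subunits persist, pair with ARNT and bind a short core motif near their target genes. Vegfa (a growth factor for vessels), Adm (the vasodilator peptide adrenomedullin), Bnip3 (a mitochondrial receptor for mitophagy), Car9 (a carbonic anhydrase at the cell surface), Ankrd37 (an ankyrin-repeat protein) and Higd1a (a mitochondrial inner membrane protein) are well-known targets, and so are Egln1 and Egln3 themselves. Since the alpha subunits are controlled largely as proteins, the RNA levels given here do not measure HIF activity.

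The RefSeq promoter windows of the mouse (GRCm38.p6, 250 bases before to 50 after each gene's start) held an entry for 9 of the 10 genes, with 2 windows for Vegfa. The core motif was searched as ACGTG and as GCGTG on both strands. ACGTG was present in a window of 8 of these 9 genes, and it was present for 21.8% of all 27025 genes in that table. GCGTG was present for 6 of the 9 genes and for 35.2% of all genes. Adm held GCGTG alone, at 2 places, and 1 of the Vegfa windows held neither motif. A match is a description of the letters and not a binding site. The stretches below run 5′ to 3′ on the strand of the gene, with each match in capitals on either strand, and positions count back from the RefSeq start. They are shown for Car9, which rose most after AMI, for Egln3 and for Ankrd37, the gene closest to Egln3 over the hearts, and for Bnip3 and Hif1a, whose ACGTG matches on opposite strands overlap in a palindrome. Bases that GENCODE M21 places in an exon of any gene were left out, except for Car9, where the 30 bases hold its ACGTG match and lie in the annotated first exon. The stretches of Hif1a and Ankrd37 lie inside those genes, in an intron of a longer transcript.
Car9, chr4:43506996-43507025 (+), bases -30 to -1: ctatttccgatgCACGTacagcccgtccac
Egln3, chr12:54203875-54204124 (-), bases -250 to -1: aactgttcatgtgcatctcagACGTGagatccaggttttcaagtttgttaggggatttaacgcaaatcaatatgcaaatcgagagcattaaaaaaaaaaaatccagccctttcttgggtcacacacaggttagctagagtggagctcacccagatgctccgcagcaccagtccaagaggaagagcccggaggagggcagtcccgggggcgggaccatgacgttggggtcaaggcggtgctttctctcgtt
Ankrd37, chr8:45999868-46000100 (-), bases -250 to -18: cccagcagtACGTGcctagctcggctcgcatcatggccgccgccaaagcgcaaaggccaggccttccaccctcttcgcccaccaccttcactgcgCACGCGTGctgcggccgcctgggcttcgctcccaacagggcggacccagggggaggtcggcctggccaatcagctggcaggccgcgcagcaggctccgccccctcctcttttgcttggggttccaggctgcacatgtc
Bnip3, chr7:138909520-138909756 (-), bases -250 to -14: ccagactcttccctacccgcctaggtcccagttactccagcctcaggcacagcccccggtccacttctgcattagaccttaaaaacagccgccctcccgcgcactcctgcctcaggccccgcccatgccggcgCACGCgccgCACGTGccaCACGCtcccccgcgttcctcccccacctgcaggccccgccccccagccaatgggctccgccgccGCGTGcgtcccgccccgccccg
Hif1a, chr12:73907617-73907866 (+), bases -250 to -1: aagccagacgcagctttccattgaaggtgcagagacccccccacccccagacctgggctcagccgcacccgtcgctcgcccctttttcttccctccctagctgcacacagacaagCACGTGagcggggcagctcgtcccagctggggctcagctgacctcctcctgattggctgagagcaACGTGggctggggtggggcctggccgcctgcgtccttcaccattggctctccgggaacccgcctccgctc
The Egln3 stretch has 1 match far upstream, from -229 to -225, and that of Ankrd37 has ACGTG from -241 to -237 and a joined pair of GCGTG matches from -155 to -148. The Bnip3 stretch holds matches on both strands between -117 and -95 and another GCGTG from -35 to -31. The Car9 match is on the opposite strand, from -18 to -14.

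Libraries held between 23204551 and 32166517 counts. Levels are given as CPM, counts scaled to the library total and to TMM factors, which allow for transcripts that fill a large share of a library. Where genes are set against each other levels are given as TPM, which also allows for gene length. TMM factors were 0.781 to 0.917 in sham hearts, 1.01 to 1.06 on day 1 and 1.10 to 1.17 on day 7, and mitochondrial transcripts filled 17.9% to 27.4%, 12.1% to 15.9% and 13.2% to 19.2% of the counts. Without TMM factors (library totals alone), the median log2 FC of all genes moved up by 0.27 on day 1 and 0.40 on day 7 against sham and by 0.13 between the days. With TPM the shifts were 0.30, 0.51 and 0.21. The changes below are therefore relative to the bulk of the genes. Among all genes, 3360 rose and 3043 fell on day 1 with TMM, and 6015 rose and 707 fell with TPM. Sham heart 2 held the most erythroid transcripts (15170 summed TPM of 5 marker genes, against 1617 to 3635 in the other sham hearts), and results that rest on it are also given without it.

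The genes covered a wide range of levels within the sham heart. In TPM, Egln1 (228 ± 41.9, SD, n = 4) and Vegfa (227 ± 75.9) were highest in sham hearts, and Bnip3 followed with 187 ± 86.8. These 3 neighbours did not differ beyond their spread. Higd1a (117 ± 35.1), Epas1 (84.8 ± 6.35), Egln3 (59.9 ± 36.1) and Hif1a (25.1 ± 3.04) formed the middle. Ankrd37 (8.88 ± 6.38) and Adm (8.79 ± 1.98) were low and alike. Car9 was near the limit of detection, with 0.09 TPM in 3 sham hearts and 0.99 in sham heart 2. On day 7 the order had changed: Vegfa led with 301 ± 55.0 TPM, ahead of Bnip3 (148 ± 9.03) and Egln1 (141 ± 5.54). Higd1a (67.9 ± 16.4), Epas1 (65.8 ± 8.26), Hif1a (59.2 ± 4.81) and Egln3 (58.4 ± 19.4) then lay within each other's spread.

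**Figure D1:**
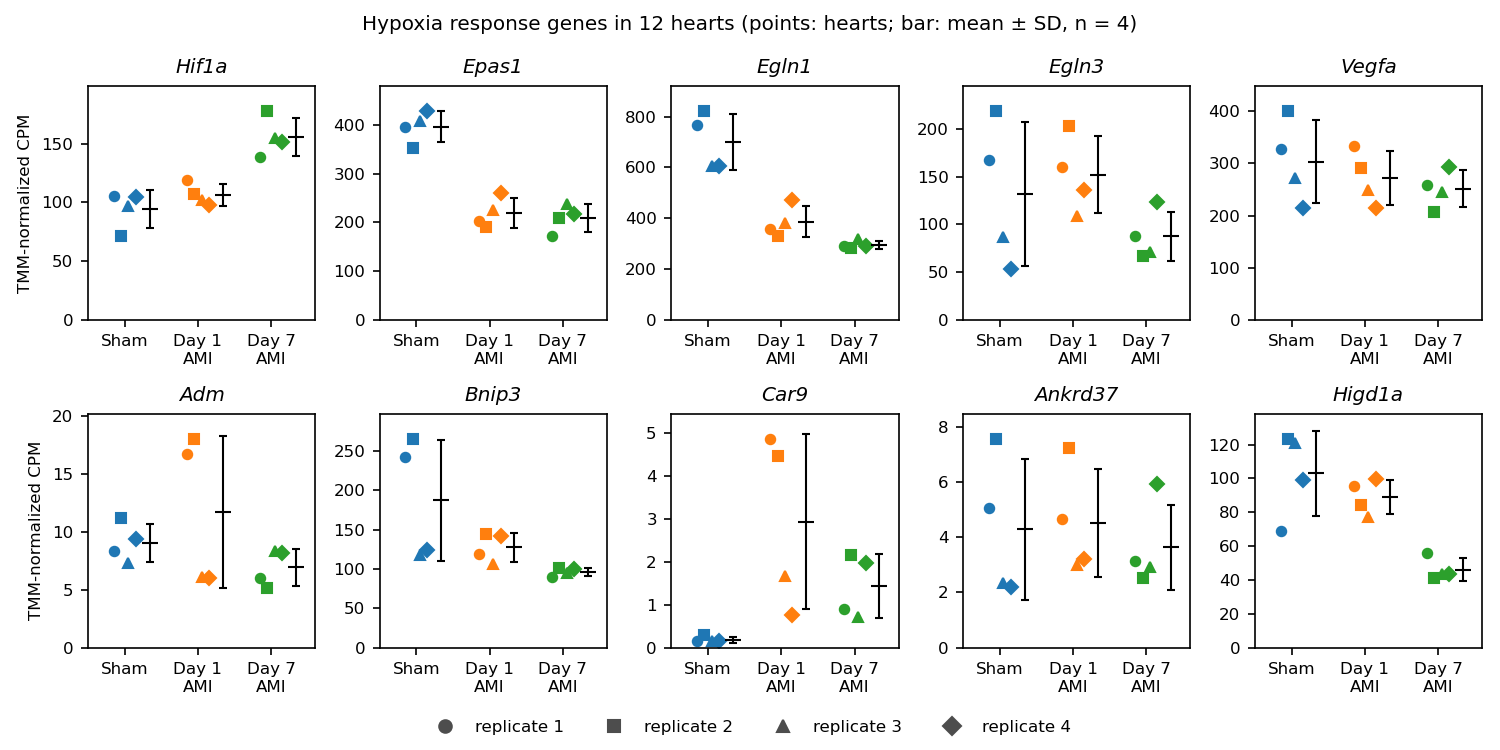
TMM-normalized CPM (y axis, from 0, a separate scale for each gene) of the 10 genes in each heart by group (x axis, sham and the days after AMI); marker shapes give the replicate number and the bar beside each group gives mean ± SD (n = 4). Epas1, Egln1 and Car9 do not overlap between sham and day 1, and Hif1a, Bnip3 and Higd1a separate from sham on day 7.

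Against sham, 3 of the 10 genes changed on day 1 (FDR below 0.05 by edgeR): Car9 rose, and Epas1 and Egln1 fell. Of all 15306 genes tested, 41.8% changed in this comparison, 22% higher and 19.9% lower, so the count among the hypoxia genes was not above the background. The same 3 genes did not overlap between sham and day 1 hearts in CPM, which held for 36.7% of all genes (19.6% higher and 17.1% lower). The median log2 FC of the 10 genes was -0.04, beside -0.01 for all genes. All 10 passed the filter on low counts. On day 7 against sham, 6 genes changed, 2 higher (Car9 and Hif1a) and 4 lower (Epas1, Egln1, Bnip3 and Higd1a). The background was 59.3% of all genes, 30.9% higher and 28.4% lower, and the median was -0.49 beside 0.03 for all genes. The same 6 genes did not overlap between the groups in CPM, beside 53% of all genes (28.3% higher and 24.7% lower). Between day 1 and day 7, Hif1a rose and Egln1 and Higd1a fell, 3 genes against a background of 47% (24.2% higher and 22.8% lower). These 3 and Bnip3 did not overlap between the days, beside 44.5% of all genes (23.5% higher and 20.9% lower). With a FC of 2 or greater as a further condition, which defines a differentially expressed gene (DEG), Car9 remained on day 1, where 7.79% of all genes were higher DEGs and 2.98% lower. On day 7 Car9, Egln1 and Higd1a were DEGs, beside 15.3% of all genes higher and 5.88% lower. Between the days 8.55% of all genes were higher DEGs and 2.69% lower, and the largest of the called changes among the 10 genes was 1.94-fold (Higd1a). Both AMI groups are compared with the same sham hearts. Without sham heart 4, Egln3 and Vegfa also passed on day 7, for 6 lower genes. Without sham heart 2 the counts were 1 higher and 2 lower on day 1, 2 higher and 4 lower on day 7, and 1 higher and 3 lower between the days. With TPM (limma on log2(TPM + 1)) they were 2 and 2, 2 and 3, and 1 and 1, and with library totals alone they were 2 and 2, 2 and 4, and 1 and 1. Under TPM 43.9% of all genes were higher and 5.15% lower on day 1. These shares were 62.7% and 7.24% on day 7 and 35.6% and 9.28% between the days. With library totals alone they were 41.1% and 6.93%, 53.8% and 10.8%, and 31.2% and 14.2%.

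**Figure D2:**
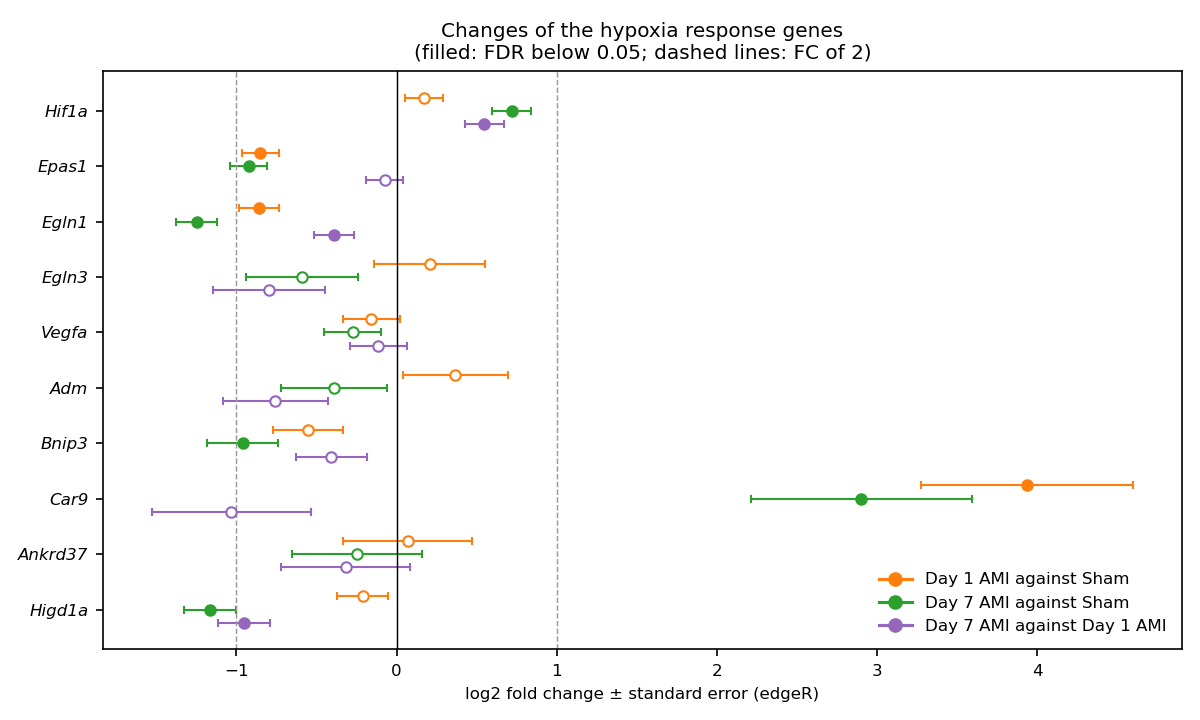
Log2 fold change (x axis) with its standard error for each gene (y axis) in the 3 comparisons, from edgeR; filled points have an FDR below 0.05 and dashed lines mark a FC of 2. Car9 lies far to the right against sham, and Egln1 and Higd1a pass a FC of 2 downward on day 7. The points of Egln3, Vegfa, Adm and Ankrd37 are unfilled throughout. The direction of Vegfa in all comparisons, of Ankrd37 and Adm on day 7 and of Higd1a on day 1 turned with TPM and with library totals alone.

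Of the HIF alpha subunits, Hif1a rose late and Epas1 fell early. Hif1a (chr12:73901375-73947530, plus strand) measured 106, 71.0, 97.2 and 104 CPM in sham hearts 1 to 4, 119, 107, 102 and 97.8 CPM on day 1, and 138, 178, 154 and 151 CPM on day 7. All day 7 hearts were above all others, and day 1 overlapped sham. Hif1a was 1.65-fold higher on day 7 than in sham (log2 FC 0.72, SE 0.121, adjusted p = 0.000147 by edgeR) and 1.46-fold higher than on day 1 (0.55, SE 0.120, adjusted p = 0.00196). On day 1 the log2 FC was 0.17 (SE 0.120, adjusted p = 0.275), and with TPM or library totals alone it was called, at 0.44 (adjusted p = 0.00383) and 0.45 (adjusted p = 0.00311). Relative to the median of all genes, these day 1 values were 0.16 and 0.19, beside 0.18 with TMM. In TPM every day 1 heart was above every sham heart.

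Epas1, which encodes the HIF alpha subunit known best from endothelium (chr17:86753700-86833410, plus strand), measured 395, 353, 409 and 428 CPM in sham hearts, 202, 191, 226 and 261 CPM on day 1, and 171, 209, 238 and 217 CPM on day 7. Every AMI heart was below every sham heart, and the AMI groups overlapped. Epas1 was 1.80-fold lower on day 1 (log2 FC -0.85, SE 0.117, adjusted p = 0.00011 by edgeR) and 1.90-fold lower on day 7 (-0.92, SE 0.117, adjusted p = 1.28e-05), and the change between the days was -0.07 (SE 0.116, adjusted p = 0.627). Of the 9 endothelial marker genes, 3 were lower and 0 higher on day 1 with TMM, and 7 were higher and 0 lower on day 7. Their summed TPM, which is scaled otherwise, was 386 to 572 in sham, 539 to 597 on day 1 and 881 to 1071 on day 7. Of the 10 cardiomyocyte marker genes, 7 were lower on day 1 and 9 on day 7, with median log2 FCs of -0.55 and -1.09. The part of either cell type in the fall of Epas1 was not tested. In whole hearts, fewer cells of a type and less RNA per cell cannot be told apart.

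The ratio of Hif1a to Epas1 within a heart does not depend on how libraries are scaled. In TPM the ratio was 0.331, 0.256, 0.288 and 0.309 in sham hearts, 0.718, 0.692, 0.533 and 0.439 on day 1, and 0.999, 1.01, 0.801 and 0.826 on day 7. The 3 groups stood in that order without overlap. Epas1 was the higher of the pair in every sham and day 1 heart, and the 2 levels were close to equal in day 7 hearts 1 and 2. On the log2 scale of counts, the ratio rose by 1.04 on day 1, by 1.66 on day 7 against sham and by 0.62 between the days (each p = 0.0286 by an exact permutation test, two-sided, the smallest that 4 hearts in each group allow, and adjusted p = 0.0429 over 6 ratio tests).

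**Figure D3:**
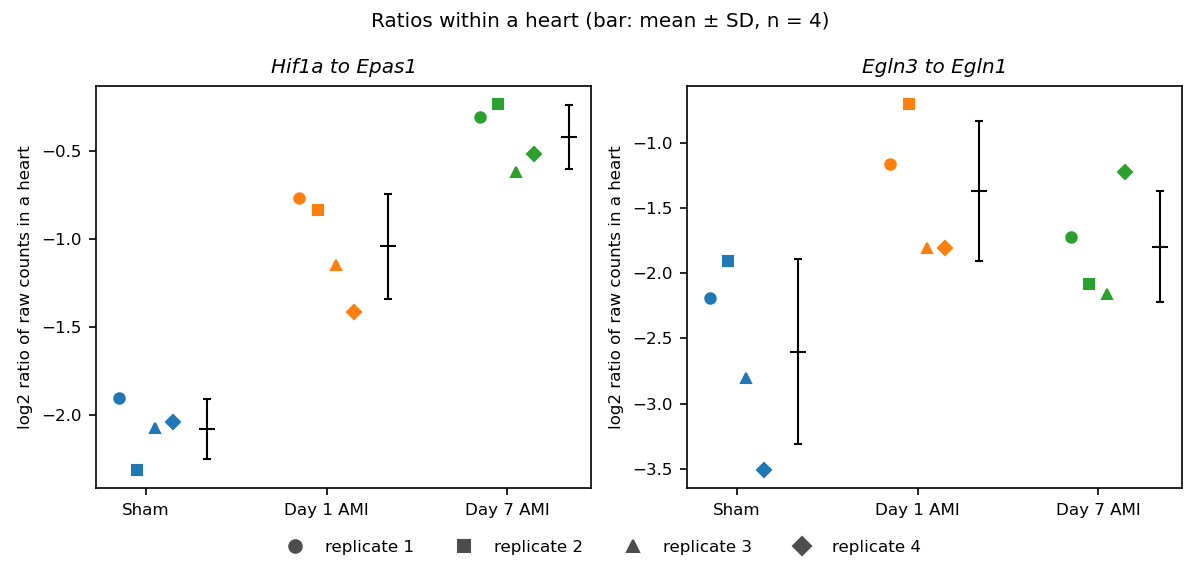
Log2 ratio of raw counts within each heart (y axis) of Hif1a to Epas1 (left) and Egln3 to Egln1 (right) by group (x axis), with mean ± SD (n = 4) beside the points. The Hif1a to Epas1 ratio climbs from sham to day 1 to day 7 without overlap, while the Egln3 to Egln1 ratio is separated from sham on day 1 and overlaps it on day 7.

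Among the prolyl hydroxylases, Egln1 fell on day 1 and day 7. Egln1, the main oxygen sensor of the family (chr8:124908587-124949324, minus strand), measured 767, 822, 606 and 604 CPM in sham hearts, 359, 331, 380.4 and 473 CPM on day 1, and 291, 282, 317 and 289 CPM on day 7. In CPM the groups followed each other downward without overlap. In TPM day 1 overlapped sham and day 7, and day 7 hearts stayed below sham hearts. Egln1 was 1.81-fold lower on day 1 (log2 FC -0.86, SE 0.125, adjusted p = 0.000157 by edgeR) and 2.38-fold lower on day 7 (-1.25, SE 0.126, adjusted p = 1.71e-06), a DEG. The step between the days was -0.39 (SE 0.124, adjusted p = 0.0191). That step rested on day 1 heart 4, without which it was -0.28 (adjusted p = 0.0639), and it was -0.14 with TPM (adjusted p = 0.423). With library totals alone it was -0.265 (adjusted p = 0.117 by edgeR). Cardiomyocyte markers fell in the same hearts, 7 of 10 on day 1 and 9 of 10 on day 7, with median log2 FCs of -0.55 and -1.09, and summed TPM of 69539 to 82105 in sham, 58911 to 67096 on day 1 and 52732 to 61067 on day 7. Their part in the fall of Epas1, Egln1, Bnip3 and Higd1a was not tested.

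Egln3, whose product is strongly induced by hypoxia in many cells (chr12:54178981-54203860, minus strand), measured 168, 219, 86.9 and 53.0 CPM in sham hearts, 160.2, 203, 109 and 136 CPM on day 1, and 88.0, 66.7, 70.8 and 124 CPM on day 7. The sham hearts alone covered a 4.13-fold range that took in every AMI heart. No comparison of Egln3 passed the test, with log2 FCs of 0.21 on day 1 (SE 0.347, adjusted p = 0.658), -0.59 on day 7 (SE 0.349, adjusted p = 0.16) and -0.80 between the days (SE 0.350, adjusted p = 0.0744 by edgeR). The last of these passed with edgeR on only the AMI hearts (-0.81, adjusted p = 0.0101) and with DESeq2 on the same hearts (-0.82, adjusted p = 0.000425). It also passed without the count filter and without sham heart 2, sham heart 4 or day 7 heart 4 (adjusted p from 0.0265 to 0.0435). The day 7 value against sham passed without sham heart 4 (-0.86, adjusted p = 0.0218) and turned to 0.12 with TPM.

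Set against Egln1 in the same heart, Egln3 separated on day 1. The TPM ratio of Egln3 to Egln1 was 0.304, 0.370, 0.199 and 0.122 in sham hearts, 0.621, 0.854, 0.397 and 0.398 on day 1, and 0.421, 0.328, 0.311 and 0.597 on day 7. All day 1 hearts were above all sham hearts, and day 7 hearts lay between and overlapped both groups. The log2 count ratio was higher by 1.23 on day 1 (p = 0.0286, adjusted p = 0.0429, exact permutation test), where the separate log2 FCs were 0.21 for Egln3 and -0.86 for Egln1 (edgeR). On day 7 it was higher by 0.81 (p = 0.114, adjusted p = 0.137), and between the days the difference was -0.43 (p = 0.286, exact permutation tests).

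Among the 10 genes, Car9 had the largest fold change against sham. Car9 (chr4:43506966-43513729, plus strand) had 3, 7, 3 and 3 counts in sham hearts, 127, 149, 51 and 24 on day 1, and 29, 56, 19 and 58 on day 7. In CPM these were 0.143 to 0.287 in sham, 0.757 to 4.86 on day 1 and 0.701 to 2.16 on day 7. Every AMI heart exceeded every sham heart in CPM, and 3 of the 4 sham hearts were at 3 counts, no more than a count of 0 would allow as its upper limit. The ratio of summed counts, 351 to 16 on day 1, was 15.3-fold after scaling (95% exact interval for counting error only, 9.29 to 27.1), and on day 7, with 162 counts, it was 7.50-fold (4.48 to 13.4). edgeR gave log2 FCs of 3.93 (SE 0.663, adjusted p = 0.000436) and 2.90 (SE 0.689, adjusted p = 0.00227), both DEGs, and -1.03 between the days (SE 0.495, adjusted p = 0.102). Without day 1 heart 4, the lowest of its group, the difference between the days was -1.36 (adjusted p = 0.0175). In TPM sham heart 2 (0.99) reached into both AMI groups, and on the log2(TPM + 1) scale, which shrinks low values, the change was 1.25 on day 1 (adjusted p = 0.0102 by limma) and 0.94 on day 7 (adjusted p = 0.0282, and 0.0666 without the TPM filter). An antisense gene, Gm12454, shares 9.29% of the exon bases of Car9 and had at most 15 counts in a library.

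Higd1a and Bnip3, both mitochondrial, were lower on day 7. Higd1a (chr9:121848563-121858362, minus strand) measured 69.0, 123, 121 and 99.2 CPM in sham hearts, 95.3, 84.1, 77.3 and 99.6 CPM on day 1, and 56.0, 41.3, 43.2 and 43.5 CPM on day 7. Day 7 hearts were below all other hearts in CPM, and day 1 overlapped sham. In TPM day 7 overlapped sham (89.7 in day 7 heart 1 and 70.9 in sham heart 1) and stayed below day 1. Higd1a was 2.24-fold lower on day 7 than in sham (log2 FC -1.16, SE 0.162, adjusted p = 2.87e-05, a DEG by edgeR) and 1.94-fold lower than on day 1 (-0.95, SE 0.161, adjusted p = 0.000292). On day 1 the log2 FC was -0.21 (SE 0.159, adjusted p = 0.306) and 0.28 with TPM, and without sham heart 1 it was -0.36 (adjusted p = 0.0344).

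Bnip3 (chr7:138890836-138909519, minus strand) measured 242, 266, 118 and 125 CPM in sham hearts, 119, 144, 106 and 142 CPM on day 1, and 89.5, 102, 95.0 and 99.8 CPM on day 7. Sham hearts 1 and 2 were far above sham hearts 3 and 4, and day 7 hearts lay below all others. The log2 FC was -0.55 on day 1 (SE 0.220, adjusted p = 0.0573), -0.96 on day 7 (SE 0.222, adjusted p = 0.00186) and -0.41 between the days (SE 0.220, adjusted p = 0.144 by edgeR). The last passed in fits of only the AMI hearts (-0.42, adjusted p = 0.00781 by edgeR, and -0.43, adjusted p = 0.000983 by DESeq2). The day 7 fall was -0.21 with TPM (adjusted p = 0.469), where sham and day 7 overlapped. On day 1 the value passed without sham heart 3 (-0.72, adjusted p = 0.0127) or sham heart 4 (-0.71, adjusted p = 0.0183), and with DESeq2 (-0.55, adjusted p = 0.0348). Antisense genes share 22.47% of the exon bases of Higd1a and 22.25% of those of Bnip3, with at most 10 counts in a library for the first and 0 for the second, and the strand counted is not given in the sources used here.

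The secreted factors and Ankrd37 did not separate the groups. Vegfa (chr17:46016993-46032369, minus strand) measured 328, 400.4, 272 and 214 CPM in sham hearts, 333, 292, 249 and 214 CPM on day 1, and 258, 208, 245 and 293 CPM on day 7. Its groups overlapped throughout, and its log2 FCs of -0.16, -0.27 and -0.12 (adjusted p = 0.501, 0.203 and 0.62 by edgeR) turned to 0.11, 0.45 and 0.34 with TPM. Without sham heart 4, the lowest, Vegfa passed on day 7 (-0.41, adjusted p = 0.0462).

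Adm (chr7:110627661-110629820, plus strand) measured 8.29, 11.2, 7.32 and 9.37 CPM in sham hearts, 16.7, 18.0, 6.05 and 6.02 CPM on day 1, and 5.98, 5.14, 8.34 and 8.16 CPM on day 7. Day 1 hearts 1 and 2 were above every other heart, and day 1 hearts 3 and 4 were below every sham heart. Its log2 FCs were 0.37 on day 1 (SE 0.327, adjusted p = 0.388), -0.39 on day 7 (SE 0.333, adjusted p = 0.328) and -0.76 between the days (SE 0.327, adjusted p = 0.0709 by edgeR). The last passed with DESeq2 (-0.78, adjusted p = 0.0368) and without day 1 heart 3 (-0.97, adjusted p = 0.0207) or heart 4 (-0.98, adjusted p = 0.0191), and the day 7 value turned to 0.14 with TPM.

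Ankrd37 (chr8:45996902-46005707, minus strand) measured 5.06, 7.56, 2.33 and 2.20 CPM in sham hearts, 4.67, 7.22, 2.98 and 3.22 CPM on day 1, and 3.14, 2.51, 2.91 and 5.92 CPM on day 7. Sham heart 2, day 1 heart 2 and day 7 heart 4 stood out in their groups, and the groups overlapped fully. Its log2 FCs were 0.07, -0.25 and -0.32 (adjusted p = 0.905, 0.622 and 0.538 by edgeR), and the value on day 7 against sham turned to 0.35 with TPM and to 0.19 without sham heart 2. Lrp2bp, on the other strand, shares 22.68% of the exon bases of Ankrd37 and had a mean of 36.3 to 40.8 counts in the 3 groups, and Ufsp2 shares 3.70%.

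Several of these genes varied more between hearts of a group than most genes did. The SD of log2 CPM within groups was 0.856 for Car9, 0.670 for Ankrd37, 0.623 for Egln3 and 0.561 for Adm, beside a median of 0.197 over all genes tested. Hif1a (0.191), Epas1 (0.177) and Egln1 (0.189) were near that median. Sham heart 2 was the highest sham heart for 8 of the 10 genes, and it was the highest for 27.9% of all genes. Relative to the mean of its group, Egln3 was at 0.56 and 0.94 in sham hearts 1 and 2 and at -0.39 and -1.10 in hearts 3 and 4, on the log2 scale. Ankrd37 in the same hearts was at 0.42, 1.00, -0.67 and -0.75. Sham heart 2 was also the sham heart with the most erythroid transcripts. The summed TPM of the 8 neutrophil markers was 106, 239, 10.9 and 5.20 in sham hearts 1 to 4, 233, 500.2, 122 and 220.3 on day 1, and 27.9, 16.1, 29.9 and 180 on day 7. It was thus highest in sham heart 2, day 1 heart 2 and day 7 heart 4, the hearts in which Egln3 and Ankrd37 were highest. The neutrophil markers were not alone in this. Summed TPM of the 9 endothelial markers was highest in the same hearts (572, 597 and 1071). That of the 9 macrophage markers was highest in sham heart 2, day 1 heart 2 and day 7 heart 1. The part of these markers in the values of Egln3 and Ankrd37 was not tested.

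**Figure D4:**
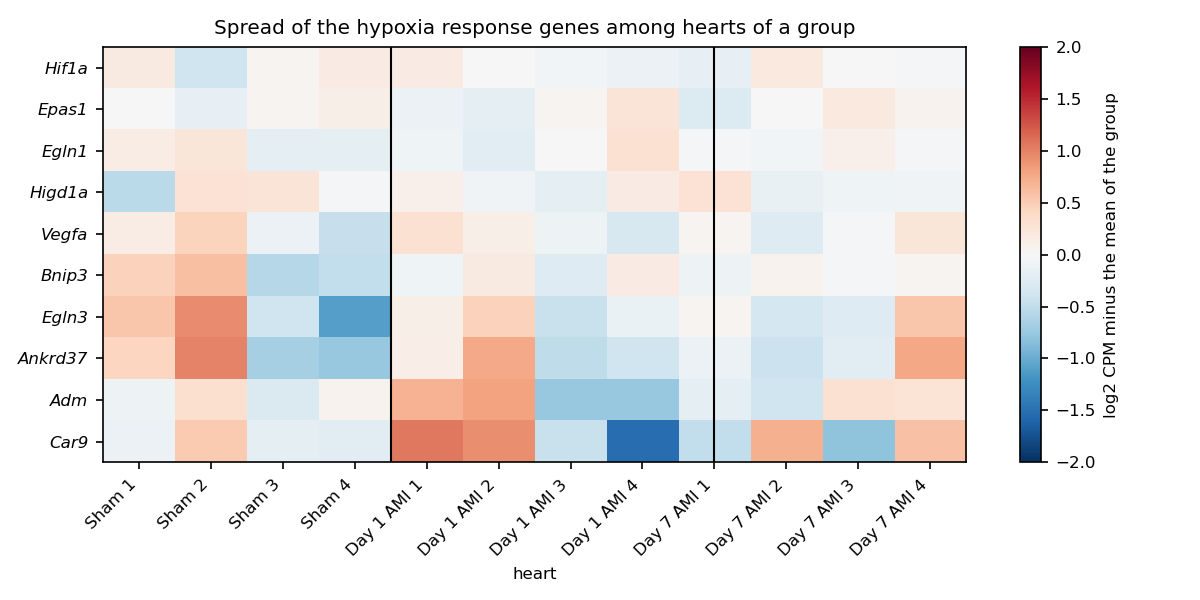
Log2 CPM minus the mean of the group (colour, red higher and blue lower) for each gene (rows) in each heart (columns). The left line separates sham from day 1. The right line runs through the column of day 7 heart 1, and that whole column belongs to day 7. Egln3 and Ankrd37 are strongest red in the same hearts (sham hearts 1 and 2, day 1 heart 2, day 7 heart 4), and Car9 and Adm are red in day 1 hearts 1 and 2.

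Genes whose level ran closest to a member over the 12 hearts were found by the root mean square (RMS) difference of log2 CPM, each gene centred on its own mean, among 13932 genes. For Egln3 the closest was Ankrd37 (RMS difference 0.286, beside an RMS of 0.632 for Egln3 about its own mean), then Noct (0.332), which encodes the circadian deadenylase nocturnin, and Itga2b (0.354), the platelet integrin. For Egln1 they were Perm1 (0.102), a muscle regulator of mitochondrial genes, Pcnt (0.107) and Lpl (0.107), lipoprotein lipase. For Epas1 they were Ttc12 (0.0822), Gramd1b (0.0826) and Smim19 (0.0828), and for Hif1a they were Reep3 (0.106), Sept2 (0.107) and 4931406C07Rik (0.108). These values describe 12 libraries that share the 3 groups and their scaling.

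Other genes of the HIF machinery changed in both directions. Of 11 machinery genes tested (the subunits, hydroxylases, Vhl, Hif1an and Cited2), 3 changed on day 1, all lower (Epas1, Egln1 and Hif3a), beside 41.8% of all genes changed. On day 7, 3 were higher (Hif1a, Arnt2 and Vhl) and 6 lower (Epas1, Egln1, Egln2, Hif1an, Cited2 and Hif3a), beside 30.9% and 28.4%. With TPM the split was 5 higher and 2 lower on day 1 and 3 and 3 on day 7. Under TPM 43.9% of all genes were higher and 5.15% lower on day 1, and 62.7% and 7.24% on day 7. Hif3a and Arnt2 were below 1 TPM in every heart, so the filter left them out of this TPM split. Arnt2, a partner of the alpha subunits, went from 0.445 ± 0.0986 CPM in sham to 1.45 ± 0.411 on day 7 (log2 FC 1.69, SE 0.355, adjusted p = 0.0009), while its paralogue Arnt did not pass (0.08 on day 7, adjusted p = 0.252 by edgeR) except with TPM (0.65) and library totals alone (0.49). The Arnt2 values rest on few counts, 7 to 13 in each sham heart and 26 to 62 in each day 7 heart. Vhl, which recognizes hydroxylated alpha subunits, rose modestly, from 14.5 ± 0.807 to 18.9 ± 1.36 CPM on day 7 (0.38, SE 0.0889, adjusted p = 0.00209).

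Egln2, the remaining prolyl hydroxylase, went from 60.4 ± 8.03 CPM in sham to 69.8 ± 4.73 on day 1 and 40.8 ± 4.36 on day 7. On day 1 its log2 FC of 0.21 did not pass (adjusted p = 0.114 by edgeR). It passed without sham heart 2 (0.30, adjusted p = 0.0231) and with TPM (0.55, adjusted p = 0.00358 by limma). Its log2 FC on day 7 was -0.56 (SE 0.103, adjusted p = 0.000302 by edgeR), but 0.03 with TPM and -0.17 with library totals alone (adjusted p = 0.238), and between the days it was -0.77 (SE 0.103, adjusted p = 4.34e-05). Hif1an, the asparaginyl hydroxylase that blocks the coactivator contact of HIF, was at 112 ± 8.37, 107 ± 8.77 and 79.3 ± 6.57 CPM, lower on day 7 with TMM (-0.50, SE 0.0870, adjusted p = 0.000194) but at 0.07 with TPM and -0.10 with library totals alone (adjusted p = 0.359). Cited2, which competes with HIF for that coactivator, was 2.01-fold lower on day 7 (SE of the log2 FC 0.169, adjusted p = 0.000148 by edgeR), and its log2 FC was -0.39 with TPM (adjusted p = 0.0452 by limma, and 0.0882 without the TPM filter). On day 1 its log2 FC of -0.41 did not pass (adjusted p = 0.0617 by edgeR). It passed without sham heart 2 (-0.54, adjusted p = 0.0128) or day 1 heart 3 (-0.49, adjusted p = 0.0465). Hif3a, an inhibitory relative, went from 2.36 ± 1.04 CPM in sham to 1.04 ± 0.584 on day 1 (-1.17, adjusted p = 0.0442) and 0.778 ± 0.316 on day 7 (-1.61, adjusted p = 0.00704). Its day 1 call was lost without sham heart 2 (adjusted p = 0.133) and without several other hearts.

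The wider set of HIF targets split in both directions. Of 49 targets tested, 12 rose and 14 fell on day 1 (background 22% and 19.9%), 12 rose and 21 fell on day 7 (30.9% and 28.4%), and 6 rose and 19 fell between the days (24.2% and 22.8%). The median log2 FC was 0.08, -0.25 and -0.28 in these comparisons. With TPM the splits were 21 and 4, 24 and 4, and 10 and 5, so the balance of directions depended on the scaling. Under TPM 43.9% of all genes were higher and 5.15% lower on day 1, 62.7% and 7.24% on day 7, and 35.6% and 9.28% between the days. Those named are among the 4 with the largest change in each comparison. On day 1, beside Car9, these were Slc16a3 (3.39, SE 0.431), the lactate exporter, and Hmox1 (3.26, SE 0.299), heme oxygenase. On day 7 they were Lox (5.12, SE 0.350) and Loxl2 (2.64, SE 0.204), which cross-link collagen, Car9 and Slc16a3 (2.07, SE 0.428). Between the days Lox (3.06, SE 0.310) and Loxl2 (1.73, SE 0.195) rose, and Slc2a1, a glucose transporter (-1.53, SE 0.254), and Hmox1 (-1.51, SE 0.271) fell. Adjusted p by edgeR was at most 0.000808 for these genes other than Car9, whose values are given above.

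These leading targets rose against sham where marker genes of fibroblasts and macrophages also rose. Summed TPM of 8 fibroblast markers was 549 to 677 in sham, 732 to 968 on day 1 and 3131 to 5531 on day 7, with 5 of 8 higher and 2 lower on day 1 and all higher on day 7. Summed TPM of 9 macrophage markers was 139 to 273, 304 to 431 and 478 to 830, with 6 of 9 and then 8 of 9 higher, and 1 lower on day 7. Summed TPM of 8 neutrophil markers was 5.20 to 239 in sham, 122 to 500.2 on day 1 and 16.1 to 180 on day 7, with 4 of 8 higher on day 1. Of these 8 markers, 1 was higher and 1 lower on day 7 against sham, and 5 were lower between the days. No marker in these lists was at 0 in every library. The part of these cells in the levels of Hif1a, Car9 and the targets above was not tested.

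**Figure D5:**
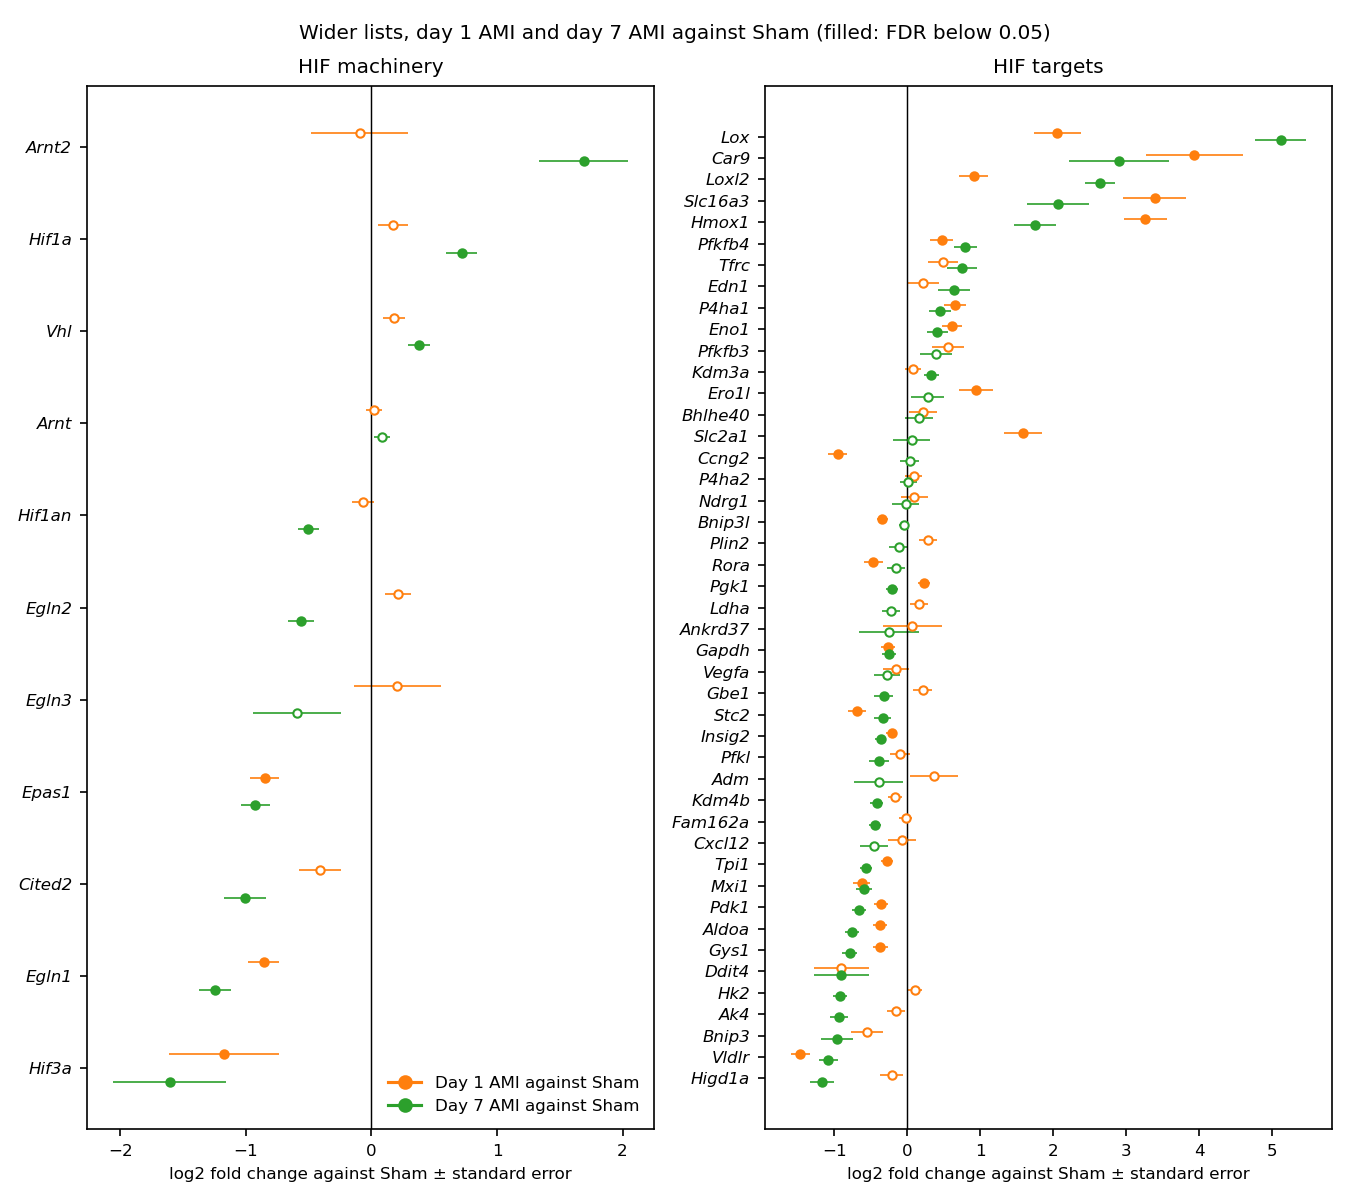
Log2 fold change against sham (x axis) with standard error on day 1 AMI and day 7 AMI for the HIF machinery (left) and the HIF targets reported here that are not on the machinery list (right), with genes as rows in the order of their day 7 value; filled points have an FDR below 0.05. On day 7 Lox, Car9, Loxl2 and Slc16a3 lead upward and Higd1a, Vldlr and Bnip3 lie at the lower end, and in the machinery Hif1an and Egln2 lie below 0 on day 7 with TMM but not with TPM.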

How the data were processed

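RNA from whole hearts of 12 mice was sequenced, 4 in each group, and libraries were grouped by their labels. The authors aligned trimmed paired reads with STAR (2.4.0j in the submitters' processing notes) to mm10 (GRCm38) and deposited counts, whole numbers of reads per gene without normalization, and TPM from RSEM, rounded to 2 decimals. The tool behind the counts, the strand counted and the handling of reads shared between genes are not given in the sources used here. No library repeated another of its group.

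Counts were tested with edgeR 4.0.16 in R 4.3.3 (TMM, filterByExpr by group, quasi-likelihood F test, all 3 groups fitted together), with Benjamini-Hochberg adjustment over 15306 genes. SEs of log2 FCs follow from the F statistic. The study called DEGs with DESeq2, which was used here as an alternative (version 1.42.0). Other alternatives were edgeR with RLE factors, without the filter, on just the compared pair of groups and with a replicate block, limma 3.58.1 on log2(TPM + 1) and log2(TPM + 0.1) for genes reaching 1 TPM in 4 or more libraries or for all genes, and each heart left out in turn. edgeR with library totals alone was added after seeing the data. Ratios of paralogues used counts + 0.5 and exact two-sided permutation tests. Where a TPM value is given without another name, it is from limma on log2(TPM + 1). Intervals and the floor of 3 counts cover counting error only. Nothing says that replicates of a group differ beyond being separate hearts, so p-values measure the spread between these hearts.

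The genes, the HIF lists and the markers were chosen with earlier results of these data known. Named in addition were all machinery genes, the 4 targets with the largest called change in each comparison (1 of them on day 1 is not reported here), and the 3 genes closest to Hif1a, Epas1, Egln1 and Egln3 among genes with at least 1 CPM in their highest group. Of 52 identifiers on the target list, Car12, Epo and the second Aldoa identifier did not pass the filter. Gene positions are from GENCODE M21 (GRCm38) and promoter sequences from RefSeq (GRCm38.p6). Scripts were tested on simulated data.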

Additional observations from a re-analysis of the deposited data

Results flagged for a closer look

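Of 51 groups of 4 hearts examined, 3 held a heart whose gap to the others exceeded Dixon's 95% critical value, which chance exceeds in about 5% of groups. Car9 in sham heart 2 was at 0.287 CPM, from 7 counts, while the other sham hearts were at 0.143 to 0.156 CPM, from 3 counts each. Higd1a in day 7 heart 1 was at 56.0 CPM, with the others at 41.3 to 43.5 CPM. Hif1an in sham heart 4 was at 99.8 CPM, with the others at 116 to 118 CPM.

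For 3 of the 10 genes, the change against sham differed between day 7 and day 1 by the edgeR test of that difference, in which the sham hearts cancel. It is the comparison between the days given above, in which 47% of all genes changed, 24.2% higher and 22.8% lower. Hif1a differed by 0.55 (log2 FC 0.17 on day 1 and 0.72 on day 7, adjusted p = 0.00196). Egln1 differed by -0.39 (-0.86 and -1.25, adjusted p = 0.0191, and 0.0639 without day 1 heart 4), and by -0.14 with TPM (adjusted p = 0.423 by limma). Higd1a differed by -0.95 (-0.21 and -1.16, adjusted p = 0.000292).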

How the results depend on the processing

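Of 660 values of the 10 genes under other settings, 339 with 1 heart left out and 248 in other settings kept their direction and their side of the threshold. The calls of Epas1, Egln1 and Car9 on day 1, and of Hif1a, Epas1, Egln1 and Higd1a on day 7, against sham, held under every setting run. Calls of the 10 genes that a left-out heart or another setting removed or added are given with the results, apart from those without the count filter, which also added Bnip3 on day 1 and Adm between the days.

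With limma on log2(TPM + 1), log2(TPM + 0.1) and log2(TPM + 1) without a filter, values of uncalled genes turned sign: on day 1, Vegfa to 0.11 and Higd1a to 0.28, on day 7 against sham, Egln3 to 0.12, 0.13 and 0.12, Vegfa to 0.45, Adm to 0.14, 0.15 and 0.14 and Ankrd37 to 0.35, 0.41 and 0.35, and between the days Epas1 to 0.16 and Vegfa to 0.34. Of the machinery, Hif1an turned to 0.26, 0.27 and 0.26 on day 1 and to 0.0711, 0.0743 and 0.0711 on day 7, and Egln2 to 0.0276, 0.0286 and 0.0276 on day 7. With library totals alone, Vegfa turned to 0.11 and Higd1a to 0.0445 on day 1, Vegfa to 0.12, Adm to 0.004 and Ankrd37 to 0.15 on day 7, Epas1 to 0.0513 and Vegfa to 0.0167 between the days, and Arnt2 to 0.17 and Hif1an to 0.20 on day 1. These settings move the median of all genes upward, as given with the depths.

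Counts moved under the same settings, and so did the shares of all genes, given with the results for log2(TPM + 1) and library totals alone. With each TPM setting and with library totals alone, 2 of the 10 genes were higher on day 1, 1 was lower between the days and 0 were lower DEGs on day 7, where the named genes were lower by less than 2-fold. Higher DEGs on day 7 were 2 with log2(TPM + 0.1) and with library totals alone, lower DEGs between the days were 1 with each TPM setting, and 1 gene was higher on day 7 without the TPM filter. Lower genes between the days were 4 without the count filter and in either fit of just that pair of groups. For the machinery on day 1, 5, 5 and 4 genes were higher with the TPM settings and 4 with library totals alone, on day 7 3, 3 and 2 were lower with TPM, and between the days 1 was lower with TPM and 4 were higher without the TPM filter or with library totals alone. For the targets on day 1, 21 were higher and 4, 4 and 3 lower with TPM, and 20 higher and 5 lower with library totals alone. On day 7 these were 24 and 4 with TPM and 10 lower with library totals alone, and between the days they were 10, 10 and 12 higher and 5, 5 and 4 lower with TPM and 10 and 11 with library totals alone.

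With each heart left out in turn, some uncalled values crossed 0. On day 1 Egln3 ranged from -0.0558 (without sham heart 4) to 0.57, Vegfa from -0.29 to 0.005 (without sham heart 2), Ankrd37 from -0.25 (without day 1 heart 2) to 0.51, Arnt from -0.0058 to 0.0415 and Arnt2 from -0.45 to 0.12. On day 7 Ankrd37 ranged from -0.59 to 0.19 (without sham heart 2) and Slc2a1 from -0.0475 to 0.25. Between the days Epas1 ranged from -0.14 to 0.0146 (without day 1 heart 4) and Ankrd37 from -0.66 to 0.004 (without day 1 heart 2). Lower genes on day 7 ranged from 4 to 6 (without sham heart 4). Higher machinery genes on day 1 ranged from 0 to 1 (Egln2, without sham heart 2) and lower DEGs between the days from 0 to 1. The Hif1a to Epas1 ratio ranged from 0.95 to 1.16 on day 1, from 1.58 to 1.73 on day 7 and from 0.50 to 0.71 between the days, and that of Egln3 to Egln1 from 0.93 to 1.47 on day 1, all with adjusted p from 0.0686 to 0.0857, where 3 hearts against 4 cannot give an exact p under 0.0571.

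Replicate numbers name different mice and did not pair the samples: deviations of same-numbered hearts correlated between -0.244 and 0.229, above 0.1 in 4 of 12 pairs. With the number as a replicate block, 5883, 8747 and 6782 genes of all changed (6403, 9081 and 7197 without it), no call among the 10 genes moved, and Cited2 passed on day 1 (-0.40, adjusted p = 0.0372 by edgeR). The ratios tested by pairs of the same number had the differences 1.04, 1.66 and 0.62 (Hif1a to Epas1) and 1.23 (Egln3 to Egln1, day 1), with adjusted p = 0.1875 in this replicate block, since an exact test of 4 pairs cannot go under 0.125. Depth limited Car9 in sham hearts, at 3 to 7 counts, and left the others well above the floor.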
